A study of Mus musculus with 15 samples.

Results

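Of 24420 gene symbols counted in mouse cerebellum, 80 stood apart in 1 of the 3 groups of the study and lay close together in the other 2. They were chosen on log2(CPM+0.5), where CPM is the count divided by the library total and scaled to a common total, from the means of the groups. A member has a mean of at least 0.5 CPM over the 15 libraries, differs by less than 0.4 between WT and 82Q, lies at least 1 above or at least 1 below both of them in 82Q_M120A, and has no 82Q_M120A library within the range of the other 10. Of 14864 genes with enough counts, 13982 met the limit between WT and 82Q, 101 of these were shifted in 82Q_M120A, and 80 of the 101 also did not overlap, 53 above and 27 below. The 3 contrasts between the groups were all used to choose the members, so the members' values are a description and carry no test.

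WT (wild type) and 82Q (genotype Atxn1[82Q]) are both labelled strain FVB/nJ at 9 weeks of age. The 82Q_M120A mice (Atxn1[82Q],CalphaLoxM120A) are labelled a mixed strain of c57Bl/6J and FVB/nJ at 8 weeks. Each group has 5 libraries, and the labels do not say whether the 5 came from separate animals. The series text calls the 82Q allele a knockin, the sources name no promoter or Cre line and no agent, and the kinase allele comes in no group by itself, so that allele, strain and age cannot be told apart in any comparison with 82Q_M120A.

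Atxn1 with an expanded glutamine tract causes spinocerebellar ataxia, a disease in which Purkinje cells are the main site of damage. Protein kinase A, whose catalytic subunit Calpha is the product of Prkaca, is activated by cAMP and phosphorylates ATXN1 and transcription factors such as CREB, which binds the cAMP response element. Inbred mouse strains differ in sequence variants and gene copies at many loci, the class I histocompatibility and Trim families among them. In mice of mixed strain, neighbouring loci tend to be inherited together, and the build used for counting, mm10, is the genome of C57BL/6J.

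**Figure D1:**
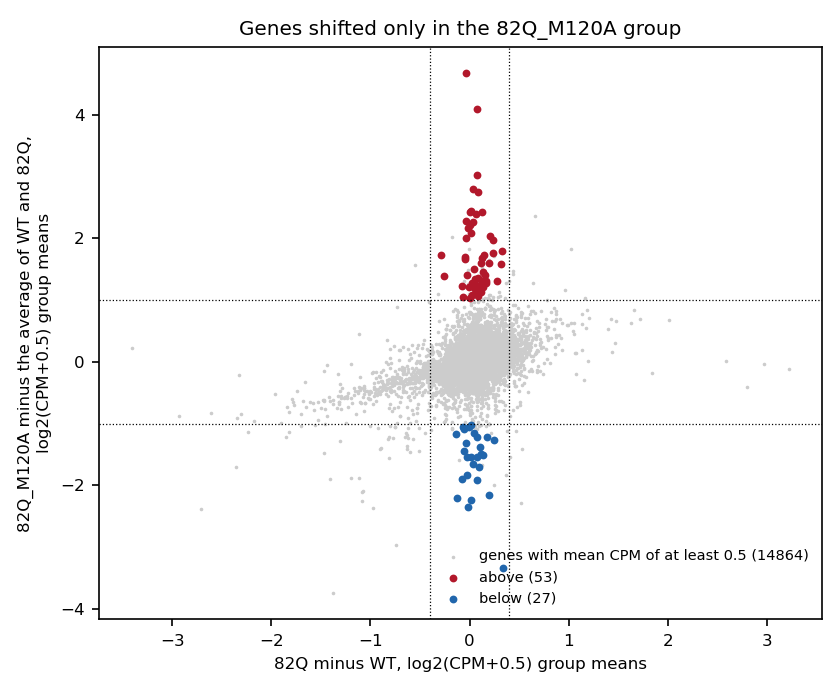
Each point is a gene with a mean of at least 0.5 CPM. The horizontal axis is the 82Q mean minus the WT mean and the vertical axis is the 82Q_M120A mean minus the average of both, on log2(CPM+0.5). The dotted lines mark 0.4 and 1, the red points are the 53 members above and the blue points the 27 members below, and grey points beyond the lines either fail against 1 of the groups or overlap.

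Library totals ran from 38.3 M to 99.4 M counts (M, mega). Summed granule cell markers stood at 7155 to 8251 CPM in WT, 7594 to 8304 in 82Q and 8317 to 8966 in 82Q_M120A, so the last group lay above both. Summed Purkinje cell markers stood at 13096 to 14627 CPM in WT, 5119 to 6115 in 82Q and 5292 to 6918 in 82Q_M120A. Against 82Q, edgeR (adjusted p under 0.05) called 10.3% of all tested genes higher and 8.63% lower. Of the markers, 4 of 20 for Purkinje cells, 5 of 14 for granule cells and 6 of 13 for oligodendrocytes were called higher and none lower. Of 12 markers of molecular layer interneurons and Golgi cells, 5 were called lower and none higher. The part of these marker shifts in the members' values was not tested. In bulk tissue, fewer cells of a type and less RNA per cell cannot be told apart. None of the 144 cell type markers in the lists is a member. Libraries within groups differed in choroid plexus markers and in a Y-linked gene. Summed choroid plexus markers ran from 213 to 4273 CPM in WT, 311 to 4743 in 82Q and 202 to 3395 in 82Q_M120A, and the Y-linked Ddx3y reached 50 CPM in 1, 3 and 2 libraries of these groups. With only libraries under that level 72 of the 80 members still met the rule, with only those above it, 1 of them WT, 67, and with only those of low Ttr, a choroid plexus transcript, 70.

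Most members had few counts. Their median of mean CPM, a scale that is not per gene length, was 2.96, against 27.6 over the 14864 genes, and their means ran from 0.595 CPM (9330159M07Rik, a long non-coding RNA) to 333.5 CPM (Scg5). Of the 80, 21 had a mean of at least 10 CPM and 14 a mean under 1 CPM. The median of the smaller of the shifts from WT and 82Q was 1.48 for members above and -1.44 for members below, and 14 above and 5 below were shifted by at least 2. Over all genes of at least 0.5 CPM, 7.99% had 82Q_M120A libraries that did not overlap the other 10. Just inside the limit on the shift lay Pdgfrl (1.01), Dctd (1.02) and Dusp2 (1.02), and just outside Gm7457 (0.997), Aldh1a1 (0.988) and A230001M10Rik (0.987).

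In the edgeR quasi-likelihood fit of all genes, 79 members were tested. Calls (Benjamini-Hochberg adjusted p under 0.05) covered 77 of them in 82Q_M120A against 82Q, where 18.9% of all tested genes were called, and 78 in 82Q_M120A against WT, where 36.4% were. Against 82Q, 52 members were called higher, as were 10.3% of all genes, and 25 lower, as were 8.63%. Against WT, 52 were higher (18.6% of all genes) and 26 lower (17.8%). Because the rule used these contrasts, nothing is read from those counts. In 82Q against WT, where 18.7% of genes were called and 8.63% were called higher, the count was 1, higher, of Lipo1, a lipase family gene at 1.61 to 1.91 CPM in WT and 1.94 to 2.40 in 82Q. H2-T10 and BC002163 missed the threshold against 82Q although they meet the rule, and H2-K2 was not tested. In each of these 3 genes the libraries of 82Q_M120A were far apart.

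The series concerns a protein kinase A subunit, so the promoters of members were read for the cAMP response element. RefSeq promoters (GRCm38.p6, 250 bases before the start) were found for 60 members in 74 entries and not for the other 20. The full element TGACGTCA, which reads the same on both strands, lay in 1 of 74 (1.35%) and in 1.55% of 32851 promoters of the same length. Its shorter form TGACG or CGTCA, which the full element also contains, lay in 10 of 74 (13.5%) and in 17.8% of all. A match is a description of letters and not a bound site. Shown are the 1 full match and 2 of the shorter matches in members that were shifted in all 5 libraries by similar amounts, each cut where the annotated gene begins, 5′ to 3′ on the gene's strand, with the matches to TGACG or TGACGTCA in capitals. Ints7 (chr1:191575386-191575635, plus strand) encodes a subunit of the Integrator complex, Metap1d (chr2:71453088-71453275, plus strand) a mitochondrial methionine aminopeptidase, and Scg5 (chr2:113829122-113829341, minus strand) the secretory chaperone 7B2.
Ints7: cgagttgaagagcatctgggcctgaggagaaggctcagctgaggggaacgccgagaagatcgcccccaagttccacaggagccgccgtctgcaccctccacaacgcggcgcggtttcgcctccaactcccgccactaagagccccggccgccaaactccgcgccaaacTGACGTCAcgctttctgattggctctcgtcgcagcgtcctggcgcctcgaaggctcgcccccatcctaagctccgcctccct
Metap1d: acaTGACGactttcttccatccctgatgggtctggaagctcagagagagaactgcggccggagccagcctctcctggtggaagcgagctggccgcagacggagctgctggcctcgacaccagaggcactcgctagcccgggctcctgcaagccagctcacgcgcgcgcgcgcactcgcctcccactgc
Scg5: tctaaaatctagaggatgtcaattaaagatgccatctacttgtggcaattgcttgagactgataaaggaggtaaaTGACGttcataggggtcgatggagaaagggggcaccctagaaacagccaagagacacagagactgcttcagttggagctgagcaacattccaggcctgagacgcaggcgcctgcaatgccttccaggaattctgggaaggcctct

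Ints7 and Metap1d lay above and Scg5 below, in every 82Q_M120A library. Ints7 stood at 22.9, 23.4, 23, 24.2 and 21.5 CPM in WT, at 24.6, 25.5, 23.8, 25.2 and 25.5 in 82Q, and at 57, 57.3, 58.3, 63.2 and 54.1 in 82Q_M120A. Metap1d went from 10.6 ± 0.526 CPM in WT and 11.7 ± 0.524 in 82Q to 31.5 ± 1.64 in 82Q_M120A (SD, n = 5 for each). Scg5, which helps the prohormone convertase PC2 to mature, had the highest mean CPM of the members. It stood at 431, 414, 423, 437 and 451 CPM in WT, at 435, 423, 428, 411 and 415 in 82Q, and at 155, 157, 157, 128 and 137 in 82Q_M120A. The smallest ratio between a control library and a 82Q_M120A library was 2.61 for Scg5, and both sets of 5 were tight.

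By annotation, 55 members were protein-coding, 15 long non-coding RNAs and 10 pseudogenes. These make 68.8%, 18.8% and 12.5% of the members, where the genes of at least 0.5 CPM were 94.5% protein-coding, 4% long non-coding and 0.659% pseudogenes. Put the other way, 10.2% of the expressed pseudogenes, 2.53% of the long non-coding RNAs and 0.392% of the protein-coding genes were members. Of the long non-coding RNAs 13 lay above and 2 below, and of the pseudogenes 5 lay on each side. Predicted models, which carry clone-style or Gm symbols, made up 20 of the 80.

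The pseudogene with the largest shift was Tmem181b-ps (chr17:6438524-6467022), a relative of a transmembrane protein gene. It stood at 1.75, 1.59, 1.64, 1.73 and 2.09 CPM in WT, at 2.11, 1.68, 1.39, 1.52 and 1.88 in 82Q, and at 162, 165, 83.2, 92.6 and 2.37 in 82Q_M120A. Libraries 82Q_M120A-1 and 82Q_M120A-2 were highest, 82Q_M120A-3 and 82Q_M120A-4 at a middle level, and 82Q_M120A-5 lay 1.12 times above the highest control. Its relatives Tmem181a, at 36.9 to 41.8 CPM in the controls and 41.4 to 46.0 in 82Q_M120A, and Tmem181c-ps, at 34.9 to 43.5 and 39.7 to 46.9, were not called against 82Q (edgeR adjusted p = 0.0984 and 0.267). The sources used here do not state how reads matching several copies were counted, so counts of near-identical copies are uncertain.

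Both class I histocompatibility members carry pseudogene annotations and lie on chromosome 17. H2-K2 (chr17:33974659-33978827) was at 0.0367, 0.0702, 0.0241, 0.0135 and 0.0261 CPM in WT, at 0.0850, 0.0474, 0.0829, 0.0355 and 0.0424 in 82Q, and at 12.8, 5.55, 0.114, 6.25 and 0.0940 in 82Q_M120A. H2-T10 (chr17:36115876-36121465) was at 24.5, 24.7, 24.9, 26.3 and 26.7 CPM in WT, at 26.2, 26.1, 26.0, 25.9 and 25.9 in 82Q, and at 1.62, 14.3, 24.1, 1.69 and 23.7 in 82Q_M120A. In both genes 82Q_M120A-3 and 82Q_M120A-5 stayed next to the controls, 82Q_M120A-1 lay far away, and the members meet the rule by narrow gaps (1.11 and 1.02 times). The neighbouring class I genes H2-K1, which presents peptides to T cells, and H2-T23 were no members. H2-K1 stood at 31.8, 17.3, 15.5, 26.3 and 14.7 CPM in the same 5 libraries and H2-T23 at 10.1, 4.62, 1.39, 11.6 and 1.18, so the lowest 2 were again 82Q_M120A-3 and 82Q_M120A-5. Against 82Q both were called higher (edgeR log2 fold change 0.61 ± 0.18 SE, adjusted p = 0.0327, and 2.49 ± 0.59, adjusted p = 0.0102).

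Pseudogenes below included Gm1943, BC002163 and Gm1821. Gm1943 (chr8:109340691-109340864) was at 11.4 to 13.1 CPM in the controls and at 1.40, 1.42, 1.81, 7.10 and 1.79 in 82Q_M120A. BC002163 (chr16:42955631-42955949) was at 61.2 to 71.6 CPM in the controls and at 0.382, 30.7, 29.7, 26.8 and 28.4 in 82Q_M120A. Gm1821, related to the ubiquitin gene Ubb, was at 58.2 to 74.8 CPM and at 40, 41.8, 43.0, 11.8 and 42.0. In each of the 3, 1 library of 82Q_M120A stood away from the other 4: 82Q_M120A-4 was the highest for Gm1943 and the lowest for Gm1821, and 82Q_M120A-1 was near 0 for BC002163. Without 82Q_M120A-1, the shift of BC002163 went from -2.13 to -1.12. Ubb itself stood at 199.8 to 239.6 CPM in the controls and 214 to 240 in 82Q_M120A (not called against 82Q, edgeR adjusted p = 0.578). Ndufs5, the gene related to BC002163, stood at only 0 to 0.0261 CPM over the 15 libraries. How reads matching both were counted is not stated, so the values of BC002163 are uncertain.

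Ribosome and RNA genes gave 3 members, all above. Rpl29 (chr9:106429454-106431568) encodes a protein of the large ribosomal subunit. It stood at 2.99, 3.15, 2.95, 3.06 and 2.71 CPM in WT, at 2.99, 3.14, 3.34, 2.98 and 3.32 in 82Q, and at 69.1, 74.0, 36.4, 61.3 and 68.1 in 82Q_M120A. The mean was 20.2 times that of the 10 control libraries, and 82Q_M120A-3 stood 47.0% of the way to the highest library. Of 94 tested symbols of ribosomal proteins or their close copies, Rpl29 was the 1 member, and the median log2 fold change of these symbols against 82Q was -0.03. Nvl, an ATPase of ribosome assembly, stood at 25.7 to 31.1 CPM in the controls and 63.0 to 67.0 in 82Q_M120A, and Ints7 is given above.

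The 6 members of cell division and DNA handling all lay above, and they differed in which libraries carried the shift. Pttg1 (chr11:43420250-43426251) encodes securin, which holds separase inactive until anaphase. It stood at 1.43, 1.60, 1.70, 1.68 and 1.98 CPM in WT, at 2.08, 2.09, 1.64, 1.68 and 1.61 in 82Q, and at 12.7, 10.7, 20.7, 21.2 and 11.1 in 82Q_M120A. Bub1b (chr2:118598211-118641591), a kinase-like protein of the spindle checkpoint, stood at 0.157 to 0.271 CPM in WT, 0.213 to 0.367 in 82Q, and 1.30, 0.642, 13.8, 0.625 and 8.22 in 82Q_M120A. Rec8 (chr14:55618037-55625395), a cohesin subunit of meiosis, stood at 2.73 to 5.06 CPM in WT, 2.94 to 5.88 in 82Q, and 49.8, 7.80, 39.1, 45.3 and 10.2 in 82Q_M120A. So libraries 3 and 5 of 82Q_M120A were high for Bub1b, libraries 1, 3 and 4 for Rec8, and libraries 3 and 4 for Pttg1. The other 3 were the centromere chaperone gene Hjurp (4.78 to 6.09 CPM against 1.8 to 2.31 in the controls), the spindle midzone gene Prc1 (4.64 to 6.46 against 1.28 to 2.05) and the replication helicase gene Mcm6 (3.37 to 6.84 against 0.812 to 1.29).

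Other genes of cell division were followed through a list. Of the 23 tested genes of the list for mitotic spindle and checkpoint, 4 were called higher against 82Q and 1 lower, a share near the 18.9% of all tested genes called, and 2 of the 4 are the members Bub1b and Pttg1. The others called higher were Nuf2, a kinetochore gene (edgeR log2 fold change 1.57 ± 0.28, adjusted p = 0.00114) and the anaphase activator gene Cdc20 (0.41 ± 0.12, adjusted p = 0.0267). Cdc20 did not lie above both controls: it stood at 4.30 to 5.74 CPM in WT, 0.904 to 1.29 in 82Q and 1.20 to 1.71 in 82Q_M120A, and was called lower against WT (-1.84 ± 0.12, adjusted p = 1.68e-09, edgeR). The checkpoint kinase gene Ttk was lower (-0.81 ± 0.22, adjusted p = 0.0140). The median of the list was 0.08, beside 0.00 over all tested genes.

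Innate immune genes gave 4 members above and 1 below. Trim12a (chr7:104299894-104315466), of a Trim family with antiviral members, was at 0, 0, 0, 0 and 0.0261 CPM in WT, at 0.0142, 0, 0, 0 and 0.0424 in 82Q, and at 3.10, 3.11, 1.37, 1.89 and 2.31 in 82Q_M120A. Over the 5 libraries these are 1, 4 and 1025 counts. Trim34a stood at 0.524 to 0.901 CPM in the controls and 3.63, 2.62, 1.78, 2.74 and 2.42 in 82Q_M120A, and Trim30d at 0.325 to 0.939 and 2.82, 1.88, 1.65, 1.96 and 3.10. These 3 genes were the tightest cluster of members, on chr7:104244457-104507849, and 82Q_M120A-3 was the lowest of its group for each. Of their close relatives in the same interval, Trim30a was higher against 82Q (edgeR log2 fold change 0.70 ± 0.17, adjusted p = 0.00669), and Trim12c (-0.48 ± 0.10, adjusted p = 0.00252) and Trim34b (-2.26 ± 0.57, adjusted p = 0.0126) were lower. Trim34b was at 0.694 to 0.854 CPM in 82Q and at 0.0402, 0, 0.353, 0.417 and 0.0104 in 82Q_M120A. Reads of such paralogs may be split by the counting, so the 6 values are uncertain.

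Mndal (chr1:173849126-173942491), of the interferon-inducible HIN200 family, stood at 0.0118 to 0.0612 CPM in the controls and 1.38, 0.915, 1.27, 3.79 and 2.41 in 82Q_M120A. The overlapping relative Ifi203 was called higher against 82Q (0.72 ± 0.18, adjusted p = 0.00862, edgeR), as was Ifi204 (2.23 ± 0.37, adjusted p = 0.000343), and 82Q_M120A-2 was the lowest of its group for all 3. Il15 (chr8:82331632-82403222), a cytokine of natural killer and memory T cells, was below, at 1.88 to 2.69 CPM in the controls and 0.634, 0.628, 0.571, 0.570 and 0.627 in 82Q_M120A. The start of Il15 lies 1.64 Mb from that of Prkaca, the nearest of the 5 members on chromosome 8. No member is in the lists for class I antigen presentation, of whose 13 tested genes 5 were called higher and none lower against 82Q, or for interferon-stimulated genes (9 of 22 higher, none lower), where 10.3% of all tested genes were higher and 8.63% lower. Of the interferon list 2 were higher in 82Q against WT and none lower, where 8.63% of all were higher and 10.1% lower.

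Enzymes and carriers gave 5 members above and 7 below. Pla2g4e (chr2:120166412-120245335), a phospholipase with N-acyltransferase activity, was at 65.4, 56.4, 62.5, 53.1 and 57.5 CPM in WT, at 56.3, 65.4, 58.3, 59.7 and 52.9 in 82Q, and at 12.5, 11.5, 14.3, 9.07 and 9.21 in 82Q_M120A. The mean of the controls was 5.20 times that of 82Q_M120A, and all 5 libraries were low. Gdpd3, a lysophospholipase D, was at 33.6 to 39.1 CPM in the controls and 17.7, 3.16, 19.6, 14.6 and 3.50 in 82Q_M120A, with 82Q_M120A-2 and 82Q_M120A-5 lowest. Gcnt1, a glycosyltransferase of O-glycans, was at 23.1 to 57.4 CPM and 10.2, 9.75, 10.1, 15.5 and 10.1. Nt5c1b, a cytosolic nucleotidase, was at 1.97 to 3.05 CPM and 0.0402, 1.08, 0.104, 0.0834 and 1.11, again with 82Q_M120A-2 and 82Q_M120A-5 together, here as the higher libraries.

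Acaa1b (chr9:119148023-119157093), a peroxisomal thiolase, and its paralog Acaa1a went in opposite directions. Acaa1b was at 2.02 to 2.82 CPM in the controls and 0.282, 0.328, 1.21, 0.306 and 0.387 in 82Q_M120A. Acaa1a, no member, was at 33.0 to 40.2 CPM in the controls and 70.5, 72.6, 56.1, 71.2 and 64.7 in 82Q_M120A (edgeR log2 fold change against 82Q 0.81 ± 0.06, adjusted p = 4.98e-08). In both genes 82Q_M120A-3 was nearest to the controls. Gm4737, a sequence related to the adenosylhomocysteinase gene Ahcy, was below (16.3 to 18.6 CPM in the controls, 4.08 to 4.65 in 82Q_M120A), and Ahcy itself was called higher (0.83 ± 0.11, adjusted p = 5.68e-05). The mitochondrial carrier gene Slc25a41 was at 1.98 to 2.74 CPM in the controls and 0.302, 1.15, 1.26, 0.181 and 0.157 in 82Q_M120A.

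Among genes of matrix, cytoskeleton and sensory structure, 7 lay above and 3 below. Col6a3 (chr1:90765923-90843971), a chain of collagen VI, had the largest shift below. It was at 11.1, 13.8, 30.1, 37.5 and 35.6 CPM in WT, at 29.3, 40, 30.9, 19.5 and 29.1 in 82Q, and at 1.64, 3.31, 2.04, 1.5 and 2.35 in 82Q_M120A. The controls spread widely, and their lowest library was 3.35 times the highest of 82Q_M120A. The partner chains were not called against 82Q (edgeR): Col6a1 gave a log2 fold change of -0.33 ± 0.12 (adjusted p = 0.0814) and Col6a2 of -0.08 ± 0.25 (adjusted p = 0.864). Against WT, Col6a1 was called lower (-0.41 ± 0.13, adjusted p = 0.0183, edgeR) and Col6a2 was not called (-0.15 ± 0.25, adjusted p = 0.688). Col6a3 also lay nearest to the limit between WT and 82Q, with a difference of 0.34, and the collagen VI gene Col6a4 just outside it, with 0.40.

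Strc (chr2:121363728-121387168) encodes stereocilin, a protein of inner ear hair bundles. It stood at 0.122, 0.0562, 0.0963, 0.189 and 0.0783 CPM in WT, at 0.113, 0.130, 0.155, 0.130 and 0.170 in 82Q, and at 3.50, 4.52, 4.65, 5.96 and 4.42 in 82Q_M120A. The adjoining gene Ckmt1, a mitochondrial creatine kinase, was at 187.4, 193.5, 196, 177 and 168 CPM in 82Q_M120A and 188 to 213 in the controls. Myo7a, an unconventional myosin of hair cells and retina, was at 2.61 to 7.53 CPM in WT, 2.77 to 8.30 in 82Q and 23.9, 21.5, 13.3, 12.1 and 20.9 in 82Q_M120A. Its controls split with the choroid plexus transcript Ttr: the 6 control libraries with at least 300 CPM of Ttr had 5.42 to 8.30 CPM of Myo7a and the other 4 had 2.61 to 3.34. In 82Q_M120A only library 1 reached 300 CPM of Ttr, and libraries 2 and 5 were as high for Myo7a as 21.5 and 20.9 CPM. Bfsp2, a filament gene of the lens, was at 0.142 to 0.340 CPM in the controls and 2.48, 3.96, 1.59, 4.46 and 3.08 in 82Q_M120A. Tgm5, a transglutaminase of the epidermis, was at 0.779 to 1.71 CPM and 3.27 to 3.81. Col19a1, a collagen chain, was at 11.1 to 14.5 CPM and 30.3 to 34.5, and Tmod4, which caps actin filaments in muscle, was below, at 3.33 to 5.09 CPM and 0.674, 2.49, 0.654, 0.681 and 1.74.

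Genes of signalling, secretion and transcription gave 5 members above and 7 below. Besides Scg5, Trhr (chr15:44196135-44235912), the receptor of thyrotropin-releasing hormone, was below, at 1.12 to 2.15 CPM in the controls and 0.241, 0.191, 0.477, 0.208 and 0.345 in 82Q_M120A. Aph1c (chr9:66814994-66834726), a subunit of gamma-secretase, was at 27.9 to 31.1 CPM in the controls and 10.6, 7.42, 20.5, 8.84 and 9.21 in 82Q_M120A. Its paralog Aph1b, no member, was at 36.1 to 45.3 CPM in the controls and 47.5 to 61.0 in 82Q_M120A (edgeR log2 fold change against 82Q 0.48 ± 0.06, adjusted p = 2.56e-05). Above were Snx22, a sorting nexin (4.35 to 5.38 CPM in the controls, 9.27 to 13.7 in 82Q_M120A), and Rasl12, of the Ras family (1.89 to 2.92 and 4.61 to 6.21). Of the remaining coding members, Ctxn3 (cortexin 3) was at 4.25 to 5.47 CPM and 22.3, 17.5, 33.1, 34.6 and 8.37, and Fam205c at 0 to 0.0518 CPM and 2.99, 2.13, 4.05, 3.33 and 3.51. Of the 24 genes of the list for protein kinase A and cAMP signalling none is a member. Of these 24, 4 were called higher and 3 lower against 82Q, where 10.3% of all tested genes were higher and 8.63% lower. Prkaca, the altered gene, fell by 0.18 ± 0.03 on the log2 scale against 82Q (adjusted p = 0.000633, edgeR), and Atxn1 was not called (adjusted p = 0.467).

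**Figure D2:**
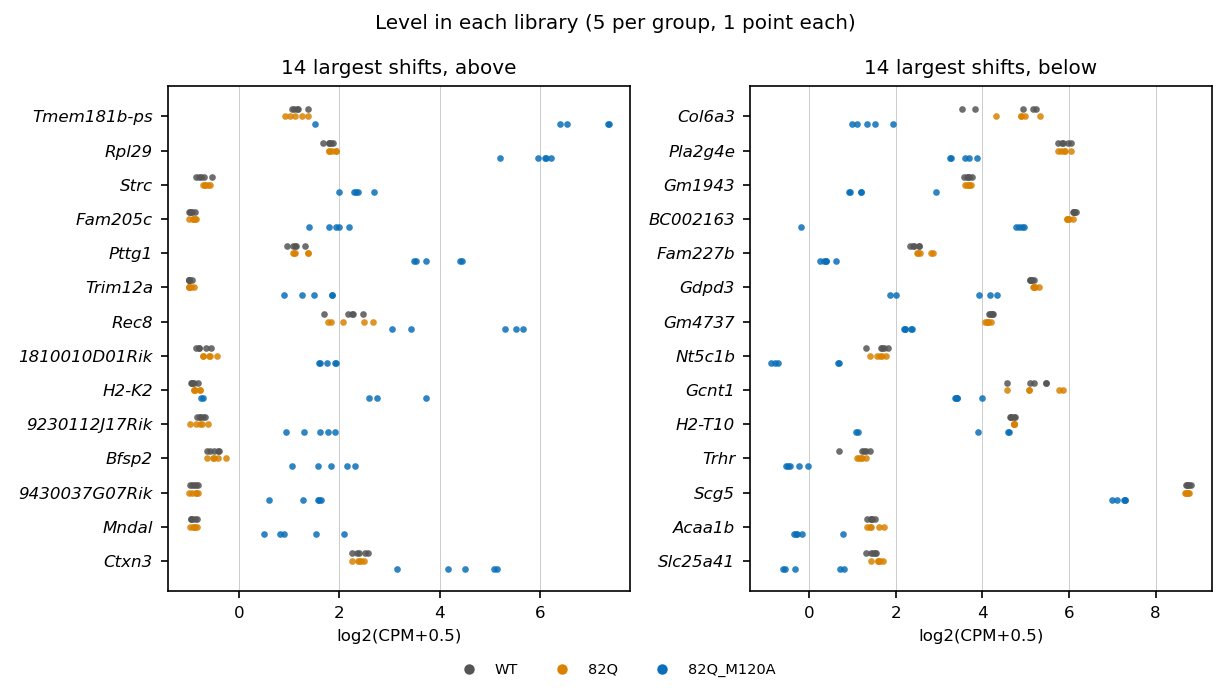
The horizontal axes are log2(CPM+0.5) and each point is 1 library, with WT in grey, 82Q in orange and 82Q_M120A in blue. Shown are the 14 named members with the largest shift on each side. By the rule, no blue point lies within the range of the others. The blue points form a tight group for Scg5 and Pla2g4e. They are spread out for Tmem181b-ps, Rec8, H2-K2 and H2-T10, where 1 or more blue points lie next to the controls.

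No source used here states whether strand was used in counting, so overlapping genes were looked up. Of the 80 members, 15 overlap 17 other genes of at least 0.5 CPM, and none of those 17 was shifted by 1 or more against 82Q on log2(CPM+0.5). The largest was Matn4, which overlaps Rbpjl and differed by -0.96. Fam227b (4.55 to 6.75 CPM in the controls, 0.697 to 1.03 in 82Q_M120A) overlaps Fgf7, a growth factor gene that differed by -2.36 on log2(CPM+0.5) between 82Q and WT, where Fam227b differed by 0.19. Reads from overlapping genes cannot be told apart without strand.

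Position was not used to choose the members. They lay on 17 chromosomes and none on 5, 10 or 13. Chromosome 9 held 15, which is 1.79% of its genes of at least 0.5 CPM, chromosome 1 held 11 (1.30%) and chromosome 2 held 11 (0.926%), against 0.538% over all. So 37 of the 80 lay on 3 chromosomes that hold 19.3% of the genes. The other chromosomes held 7 or fewer each.

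The same chromosomes held more called genes among non-members. In 82Q_M120A against 82Q, 26.1% of tested non-members on chromosome 9 were called, 23.3% on chromosome 1 and 21.8% on chromosome 2. Chromosome 19, with 3 members, stood highest at 27.0%, and chromosome 3, with 2, at 23.4%. Chromosomes 5, 10 and 13, with no member, stood at 12.5%, 13.4% and 17.6%, and chromosome 14, with 2 members, was the lowest at 10.7%. In 82Q against WT the chromosomes ran from 15.8% to 22.3%, a narrower range. The 2 comparisons share the 82Q libraries, and genes of 1 chromosome are not independent.

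**Figure D3:**
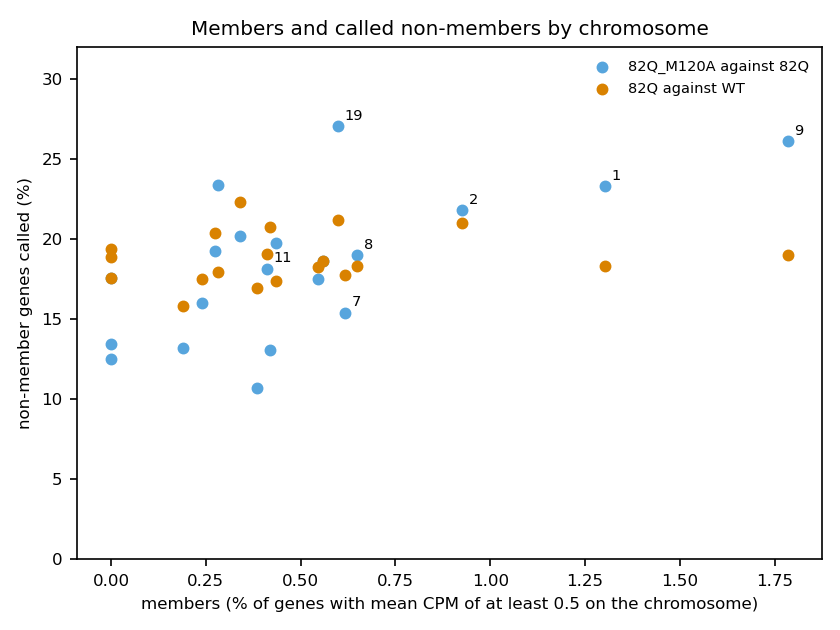
Each chromosome is 1 blue and 1 orange point. The horizontal axis is the percentage of its genes of at least 0.5 CPM that are members and the vertical axis the percentage of tested non-members called by edgeR. Chromosomes 9, 1 and 2 lie to the right, at 26.1%, 23.3% and 21.8% in 82Q_M120A against 82Q (blue), and the orange points of 82Q against WT lie between 15.8% and 22.3%.

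Where successive members were linked if their starts lay under 1 Mb apart, 3 clusters of 3 members formed. Besides the Trim genes these were Pla2g4e, Tgm5 and Strc on chr2:120166412-121387168 and Rasl12, Snx22 and Aph1c on chr9:65398506-66834726. Directions were mixed in both, with Pla2g4e and Aph1c below and the others above. Of the non-members tested between the outermost members, 14 of 26 were called against 82Q in the interval on chromosome 2, 11 of 19 in that on chromosome 9 and 3 of 3 in that on chromosome 7. Calls went both ways, with 8, 7 and 1 of these higher. Over all non-members with a position 18.5% were called, and 21.8%, 26.1% and 15.4% of tested non-members on chromosomes 2, 9 and 7. The 3 in the interval on chromosome 7 are Trim30a, Trim12c and Trim34b, whose counts are uncertain, as stated above. A further 3 pairs lay as close, Neu2 with Hjurp and Ints7 with Gm10516 on chromosome 1, and 9430037G07Rik with 9330159M07Rik on chromosome 9.

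The share of non-members called in 82Q_M120A against 82Q was highest next to members. Of 545 tested non-members whose start lay under 0.25 Mb from that of a member, 33.8% were called, 115 higher and 69 lower. The share was 29.0% from 0.25 to 0.5 Mb, 23.2% from 0.5 to 1 Mb and 25% from 1 to 2 Mb. It was 19.3% from 2 to 5 Mb, 21.7% from 5 to 10 Mb and 16.1% beyond 10 Mb, so it did not fall at every step. On chromosomes without a member it was 14.1%. Within 1 Mb it was 28.2%, and 28.0% without genes that overlap a member, against 17.5% at 1 Mb or more. In 82Q against WT the share was 15% under 0.25 Mb and 18.9% beyond 10 Mb. No test was made of these shares, since neighbouring genes are not independent.

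**Figure D4:**
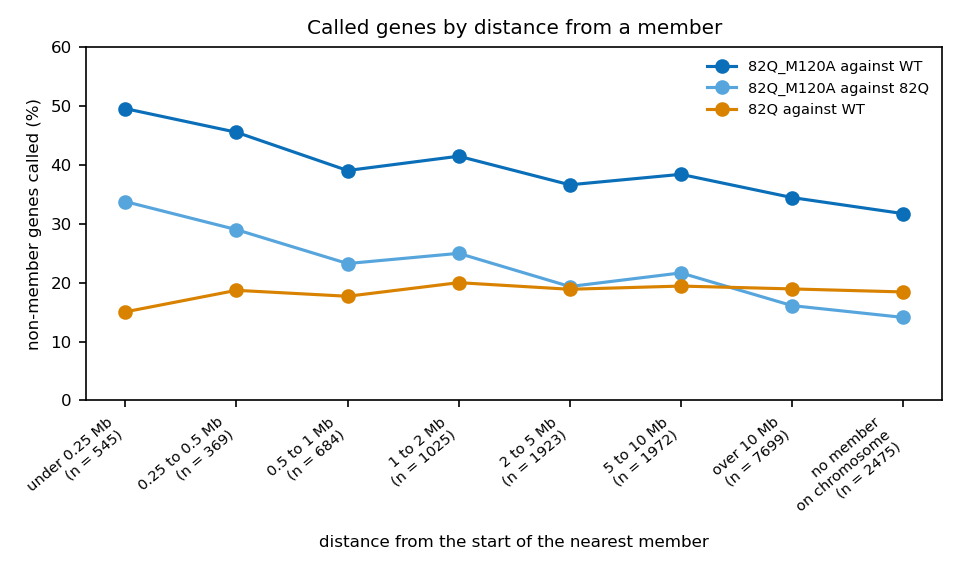
The horizontal axis groups tested non-member genes by the distance of their start from the nearest member's start, with the number of genes below each group. The vertical axis is the percentage called by edgeR in each comparison. The light blue line (82Q_M120A against 82Q) goes from 33.8% to 14.1% and the dark blue line (82Q_M120A against WT) from 49.5% to 31.7%. Both rise at 1 to 2 Mb and at 5 to 10 Mb. The orange line (82Q against WT) stays between 15% and 20%.

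The libraries of 82Q_M120A did not shift alike, and on chromosome 9 the same library shifted least in nearly every member. For each member the shift of a library from the mean of the 10 controls, in CPM, was set against the largest shift. In 40 members every library reached at least 50% of the largest, in the other 40 at least 1 library did not, and in 5 members (H2-K2, H2-T10, Tmem181b-ps, Bub1b and Rec8) at least 1 was under 10%. On chromosome 9, 82Q_M120A-3 was the least shifted in 14 of 15 members, with a median share of 45.3%, while the other 4 libraries had medians of 91.7% to 94.5%. It was the least shifted in Rpl29, Aph1c, Acaa1b and Bfsp2, thus for members above and below alike. On chromosome 17 the median share was 28.4% in 82Q_M120A-3 and 4.28% in 82Q_M120A-5, and on chromosome 2 all 5 libraries had medians of 86.8% to 97.9%. Slc25a41 on chromosome 17 differed: 82Q_M120A-5 was its most shifted library (100%) and 82Q_M120A-3 its least (50.5%). On chromosome 1, 82Q_M120A-2 was least shifted in 6 of 11, and on chromosome 7, 82Q_M120A-3 in 4 of 7. On chromosomes 2 and 8 no library stood out by this count: each was the least shifted in 1 to 3 of the 11 members and in 1 of the 5. Single members there did differ by library. Bub1b on chromosome 2 reached 7.67%, 2.81% and 2.69% in libraries 1, 2 and 4 of 82Q_M120A and 59.0% in library 5. Gm1943 on chromosome 8 reached 47.5% in library 4.

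Over all 80 members, 82Q_M120A-3 was the least shifted in 31, library 5 in 19, library 2 in 15, library 4 in 10 and library 1 in 5. Pairs of members shared their least shifted library in 53.3% of 30 pairs under 5 Mb apart, in 46.6% of 249 pairs farther apart on 1 chromosome, and in 23% of 2881 pairs on different chromosomes. The excess on 1 chromosome came from chromosome 9, where 91 of 105 pairs shared it. Without chromosome 9, 41 of 174 pairs on 1 chromosome did (23.6%), next to the 23% of pairs on different chromosomes. A pair is not independent of other pairs with the same gene.

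Genes that the rule did not select were followed by library too. For each 82Q_M120A library, non-members were taken that were called against 82Q in the fit without that library, with at least a 1.5-fold difference and a mean of at least 1 CPM, and the shift of the library left out was set against that of the other 4 on the log2 scale. Over all chromosomes the median was 95.7%, 87.5%, 83.7%, 90.7% and 84.9% in libraries 1 to 5 of 82Q_M120A, in that order. On chromosome 9 it was 68.6% in 82Q_M120A-3 (37 genes) and 100.4% to 107% in the other 4, beside 63.7% and 109% to 115% for the 15 members on this scale. On chromosome 17 it was 43.5% in 82Q_M120A-3 and 12.6% in 82Q_M120A-5 (25 genes each), beside 24.5% and 6.51% for the 4 members, while 82Q_M120A-1 stood at 159%. On chromosome 18 the 9 genes of 82Q_M120A-5 stood at 11.3%, and Ctxn3, the 1 member there, at 32.7%. On chromosome 13, which has no member, 82Q_M120A-4 stood at 12.3% (20 genes). On chromosome 7 the order of libraries differed from that of the members: non-members stood at 45.9% in 82Q_M120A-5, 60% in 82Q_M120A-1 and 72.6% in 82Q_M120A-3, and the 7 members at 101%, 120.1% and 73.4% in these libraries. On chromosome 2 the medians were 89.9% to 97.6%.

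**Figure D5:**
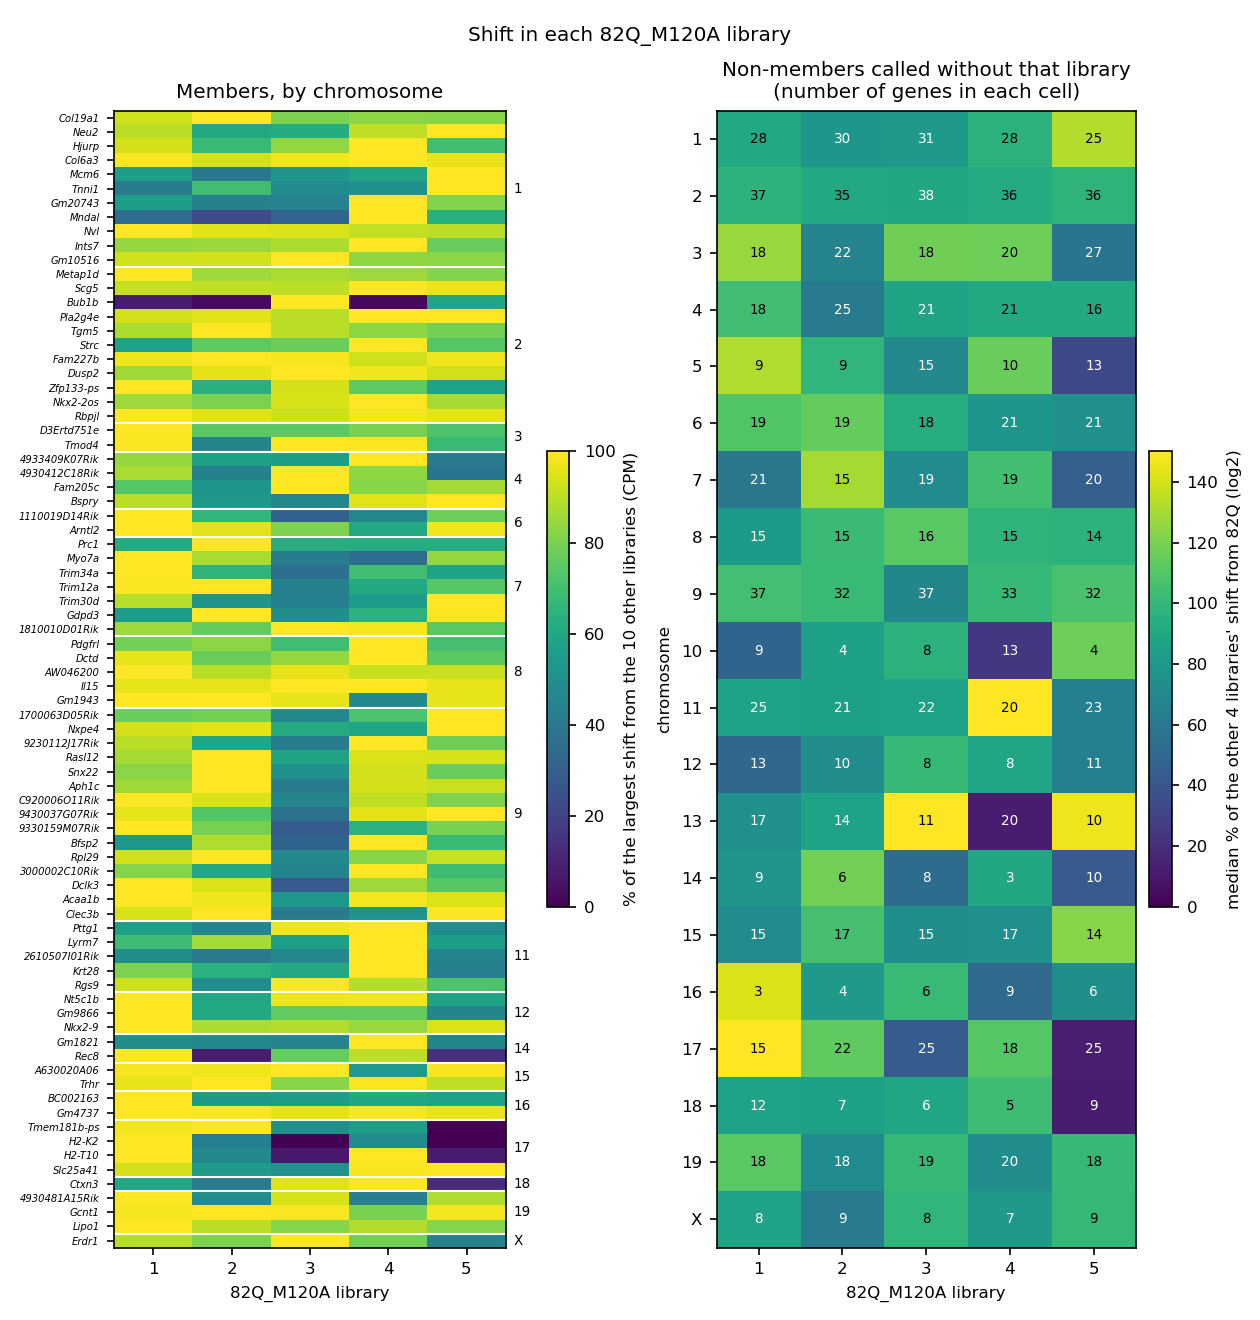
Left, each row is a member, ordered by chromosome (numbers at the right edge), each column is an 82Q_M120A library, and the colour is the library's shift in percent of the largest shift of that member, in CPM. Right, each row is a chromosome and the colour is the median shift of called non-members in that library, in percent of the other 4 libraries' shift on the log2 scale, with the number of genes in each cell. Library 3 is darker than the others on chromosome 9 in the right panel and in nearly every chromosome 9 row of the left. Libraries 3 and 5 are darker on chromosome 17, except in the left row of Slc25a41, where library 5 is the brightest.

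Strain, age and the kinase allele differ between 82Q_M120A and the controls together, so which of them goes with these 80 genes cannot be told apart. The numbers in the column names differ in the same way: those of 82Q_M120A all lie above those of WT and 82Q, which are intermixed. The labels do not give their meaning, and anything that goes with them cannot be told apart either. Of the 15 tested genes of a list of transcripts known to vary between inbred strains, 3 were called higher against 82Q (Trim12a, which is a member, Trim30a and Glo1) and 4 lower (Alad, Wdfy1, Gabra2 and Cyp2d22), beside 18.9% called over the whole table. In 82Q against WT, with 18.7% called over the table, none was higher and 2 were lower. The list was chosen with earlier results of these data known, so nothing is read from these counts. The part of strain in the members' shifts was not tested, since no group of mixed strain lacks the kinase allele.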

How the data were processed

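The deposited table holds whole-number counts per gene symbol for 15 cerebellar libraries, 5 per group. Per the submitters' processing notes, CASAVA 1.8, HISAT2 2.0.1, featureCounts of Subread, R 3.3.3, DESeq2 1.14.1 and build mm10 were used by the authors. The sources used here state neither the annotation nor the strand setting, nor how reads matching more than 1 place were counted. The columns name the group and a number whose meaning the labels do not give, and no replicate. Libraries therefore carry the group and the column's place, which pairs nothing.

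Members were found on CPM from column totals. All genes were fitted with edgeR 4.0.16 (limma 3.58.1, R 4.3.3; TMM factors, filterByExpr, glmQLFit with robust estimation and glmQLFTest, two-sided) over 15 libraries with group as the factor, Benjamini-Hochberg adjusted over 16808 genes. Standard errors are the log2 fold change over the root of the F statistic. The test was run on simulated data first, where it called 100 of 100 genes changed 2-fold in 82Q_M120A against 82Q and 98 of 100 changed 1.5-fold, among 16709 genes, and also called 6 unchanged genes. The simulation gave every gene the same spread beyond counting noise in all groups. It therefore says nothing on genes whose 82Q_M120A libraries lie far apart. Positions are from GENCODE and RefSeq on GRCm38.p6, the mm10 assembly.

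Members and gene lists were chosen with earlier results of these data known. Named are the 15 members with the largest shift on each side (predicted models at most 3 a side), members in clusters or lists, and genes next to a threshold; other named members and partners, the gene classes, and the shares by library were chosen after values were seen. P-values cover only the spread among these libraries, which may be technical. Alternatives were other scalings, DESeq2 1.42.0, limma-voom, pseudocounts, limits, and leaving out each library.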

Additional observations from a re-analysis of the deposited data

Results flagged for a closer look

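For each member and group, the highest or lowest of the 5 libraries was flagged if it stood away from the other 4 (Dixon's ratio beyond its 95% limit of 0.71). The members were chosen on these same values, so the flags are a description and have no known rate by chance. Of 240 groups, 19 had such a library, 4 in WT, 5 in 82Q and 10 in 82Q_M120A.

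In 82Q_M120A, library 4 stood away in 5 members: Gm1943 was high at 7.10 CPM, 2610507I01Rik at 22.5 CPM, A630020A06 at 0.736 CPM and Gcnt1 at 15.5 CPM, and Gm1821 was low at 11.8 CPM. Library 3 stood away in Rpl29, low at 36.4 CPM, and in Acaa1b, high at 1.21 CPM, both on chromosome 9 and both toward the controls. Library 1 was low in BC002163 at 0.382 CPM, library 2 high in Prc1 at 6.46 CPM, and library 5 low in Tmem181b-ps at 2.37 CPM.

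In WT, the library with the fewest counts, WT-5, accounted for all 4: it was high in Trim12a at 0.0261 CPM (1 count) and in Trim30d at 0.939 CPM, and low in Clec3b at 44.0 CPM and in Trhr at 1.12 CPM. In 82Q, 82Q-1 was low in Gm10516 at 4.09 CPM and high in 4930412C18Rik at 1.18 CPM, 82Q-3 was high in D3Ertd751e at 7.79 CPM and low in Gm9866 at 2.80 CPM, and 82Q-5 was low in Trim30d at 0.325 CPM.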

How the results depend on the processing

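The number of members depends on the pseudocount and on the size of shift. With a pseudocount of 2 there were 43 members (30 above, 13 below), of which 41 are among the 80, and with a shift of at least 1.5 there were 39 (26 above, 13 below). The other planned settings gave 66 to 101 members. Leaving out 1 library gave 79 to 93 members, 52 to 64 above and 26 to 32 below. Members in clusters were 9, against 3 with a link of 0.5 Mb, 15 when pairs counted as clusters, and 9 to 11 without 1 library. The share of called neighbours within 1 Mb was 24.1% to 28.1% without 1 library. Genes called numbered 2562 to 3210 in 82Q_M120A against 82Q, 5450 to 6454 in 82Q_M120A against WT and 2567 to 3319 in 82Q against WT without 1 library. With library size as the only scaling, 73.0% of calls in 82Q against WT and 68.8% in 82Q_M120A against WT were higher, against 46.2% and 51.1% with TMM factors; the split against 82Q was 54.0% and 54.3%. For 36 named members, 609 of 648 alternative values of the shift stayed within 1 SD, 39 moved and none changed sign. The shift of BC002163 counts among the former but went from -2.13 to -1.12 without 82Q_M120A-1. That of H2-K2 counts there too, although it went from 2.37 to 1.36 with a pseudocount of 2 and to 3.52 with 0.1. Rpl29 counts as moved with a pseudocount of 2, from 4.05 to 3.59. The number within 1 SD is therefore no measure of how far the shifts changed. The alternatives by Ddx3y and Ttr, and that without overlapping neighbours, were added after the data were seen. No paired analysis was possible because the columns carry no replicate numbers. Depth limits the members at 0 to 0.1 CPM in the controls, which rest on few counts there (12 for Mndal and 7 for Fam205c over the 5 WT libraries).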
